A study of Mus musculus with 12 samples.

Results

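Notch signaling passes between touching cells. A ligand of the Delta or Jagged family on the surface of a cell binds a Notch receptor on its neighbour, the proteases of the ADAM family and then the γ-secretase complex cut the receptor, and the freed intracellular part joins Rbpj and a Mastermind protein in the nucleus to switch on repressors of the Hes and Hey families. In skeletal muscle the pathway is known for keeping satellite cells and myoblasts from differentiating, and its activity is known to decline as myoblasts fuse. The 38 genes described here are 4 receptors, 4 ligands, 2 ubiquitin ligases that activate ligands, 4 glycosyltransferases, 6 protease genes, 5 genes of the nuclear complex, 6 target genes and 7 regulators. They were chosen by name, as known members of the pathway, among 16836 gene symbols in the tables.

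The messenger RNA came from emerin-null and wildtype H2K mouse myogenic progenitors. Emerin is a protein of the inner nuclear membrane, and H2K cells of both genotypes are myoblasts whose immortalizing antigen is temperature-sensitive and switched on by interferon. The study asked how loss of emerin changes transcription while these cells differentiate. The 12 samples were 6 emerin-null and 6 wildtype samples, 1 of each genotype at each of 6 stages. Proliferating cells were grown at low density in growth medium with γ-interferon at 20 units per ml. Day 0 cells were plated densely in the same medium, and cells of days 1, 2, 3 and 4 were in horse serum medium without γ-interferon. Each genotype was a single cell line, so the genotype and the line cannot be told apart. RNA of each sample came from 3 culture plates, and the tables give 1 pooled FPKM (fragments scaled to transcript length and to the number mapped in the library) per genotype and stage. There was thus no spread between replicates to set beside any difference, and all ratios below are descriptions without a test.

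Each gene is given by its most abundant tested entry at a stage, where an entry is an assembled transcript unit of the table. Ratios are log2 of emerin-null over wildtype FPKM, after 0.1 was added to both, which understates the ratio of low genes. A gene counted as past 1.5-fold where either genotype had an FPKM of at least 1 and the ratio exceeded 1.5 in either direction. The table loci of 11 of the 38 genes named another gene at 1 stage or more, and the FPKM of such an entry may belong to that neighbour.

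Emd, the targeted gene, was listed at 0 to 3.10 FPKM in the emerin-null samples, against 13.6 to 62.1 FPKM in the wildtype samples. Myod1, which commits cells to the muscle lineage, was at 58.5 to 351 FPKM in emerin-null cells and 56.7 to 349 FPKM in wildtype cells. Myog, which starts terminal differentiation, was higher in the proliferating samples than at day 0, at 806 FPKM in proliferating emerin-null cells and 744 FPKM in proliferating wildtype cells, against 186 FPKM in emerin-null and 198 FPKM in wildtype cells at day 0. Of the 7 endothelial markers (Pecam1, Cdh5, Kdr, Tek, Tie1, Vwf, Emcn), 1 to 4 had a tested entry at a stage and none of these reached 1 FPKM, and of the 4 macrophage markers Cd68 alone had values while Adgre1, Csf1r and Ptprc had none. Cd68, which lysosomes of many cells carry, was at 19.3 to 118 FPKM in emerin-null cells and 12.5 to 106 FPKM in wildtype cells, and past 1.5-fold higher in emerin-null cells at every stage except day 0. The 3 cycling genes (Mki67, Top2a, Ccnb1) summed to 15.0 and 10.6 FPKM in emerin-null cells at days 2 and 3, against 3.00 and 1.25 FPKM in wildtype cells. At day 4, where Top2a had no tested entry, the other genes summed to 3.66 FPKM in emerin-null and 0.226 FPKM in wildtype cells. At the earlier 3 stages those sums were 202, 212 and 86.1 FPKM in emerin-null cells and 199, 197 and 67.6 FPKM in wildtype cells. Of the muscle lineage list, Pax7 and Myf5, which mark progenitors, were past 1.5-fold higher in emerin-null cells at all 6 stages. Acta1, Myh3, Tnnc2 and Ckm, which encode proteins of differentiating or differentiated muscle, were past 1.5-fold lower at day 0, the only stage at which Myh3 had a tested entry. Pax7 was at 2.41 to 6.84 FPKM in emerin-null cells and 0.163 to 2.84 FPKM in wildtype cells.

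Psen2 and Hey1 were past 1.5-fold higher in emerin-null cells at every stage, and Dtx4 was below its wildtype level at every stage. Notch1, Notch2, Jag2 and Adam10 were past 1.5-fold at none. Notch3 and Jag1 were past 1.5-fold higher at the late stages only, and Heyl was so at late stages and in proliferating cells. Of the 38 genes, 36 had a tested entry at 1 stage or more and 33 reached 1 FPKM at 1 stage or more. Dll4 and Hes5 had no entry in the tables used here, and Mfng, Hey2 and Dtx1 had entries that stayed under 1 FPKM. Of the 33, 15 were past 1.5-fold at 1 stage or more and 18 at none. The matching share over all genes was not taken, so this count has no background and serves as a summary only.

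**Figure D1:**
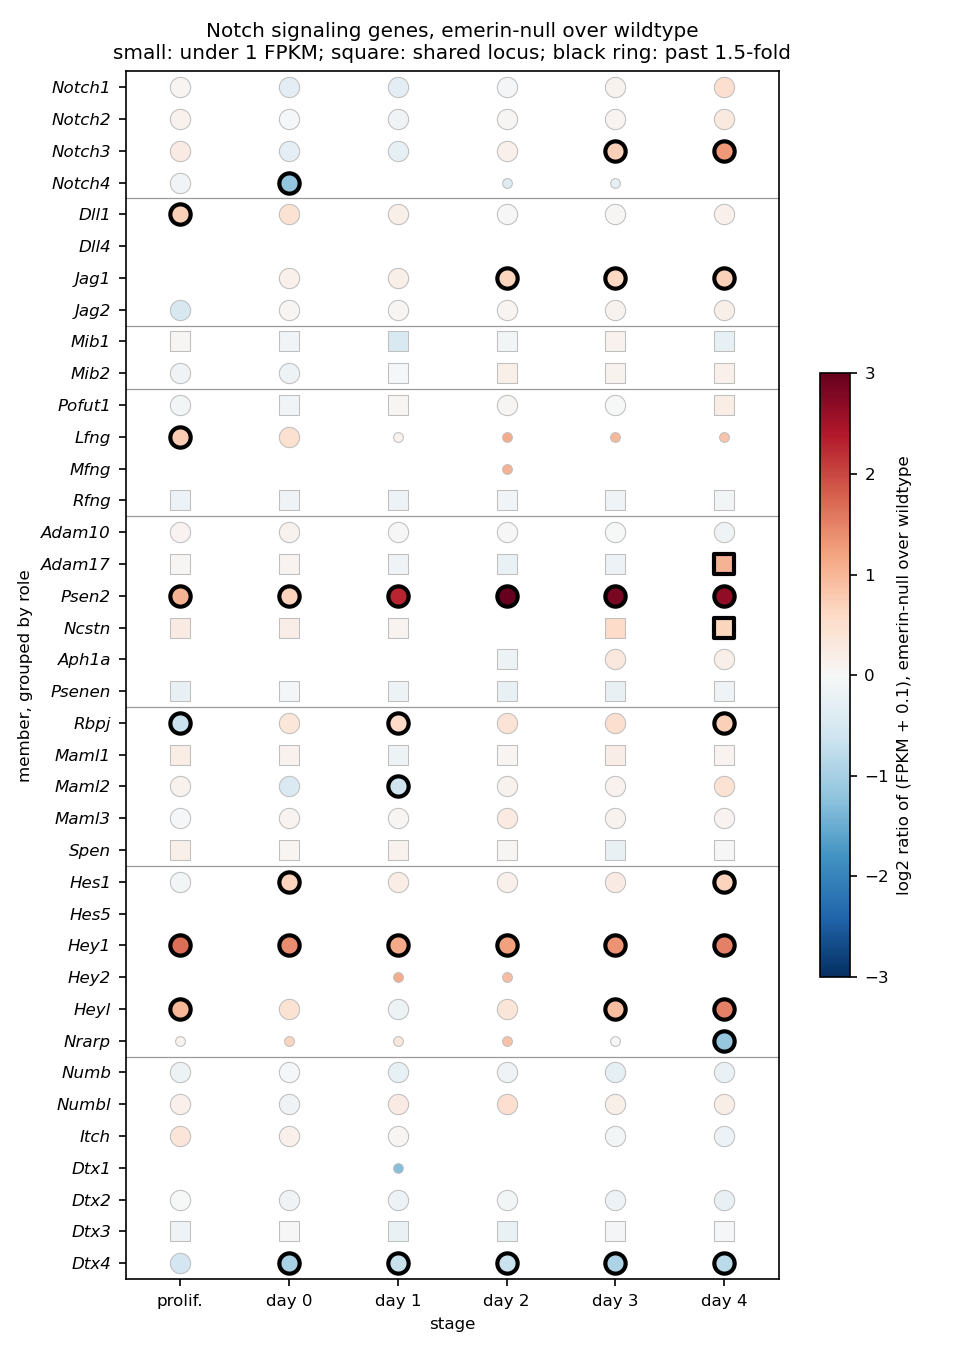
Log2 ratio of (FPKM + 0.1), emerin-null over wildtype, for each Notch signaling gene (rows, grouped by role) at each stage (columns). Black rings mark ratios past 1.5-fold, squares mark loci that name another gene, small symbols mark FPKM under 1 in both genotypes, and blanks have no tested entry. Psen2 and Hey1 carry rings at all 6 stages on the higher side, and Dtx4 carries rings at 5 stages on the lower side.

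The counts by stage were read against all genes treated in the same way. In proliferating cells 5 of 30 genes were past 1.5-fold higher in emerin-null cells (Dll1, Hey1, Heyl, Lfng, Psen2), against 5.44% of all genes, and Rbpj alone was past 1.5-fold lower, against 5.93% of all genes. At day 0, 3 of 31 were higher (Hes1, Hey1, Psen2; all genes 4.72%) and 2 were lower (Dtx4, Notch4; all genes 7.41%). At day 1, 3 of 29 were higher (Hey1, Psen2, Rbpj; all genes 5.46%) and 2 were lower (Dtx4, Maml2; all genes 5.9%).

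Day 4 held more genes on the higher side than any other stage. At day 2, 3 of 28 were higher (Hey1, Jag1, Psen2; all genes 7.23%) and Dtx4 was lower (all genes 4.6%). At day 3, 5 of 30 were higher (Hey1, Heyl, Jag1, Notch3, Psen2; all genes 8.7%) and Dtx4 was lower (all genes 5.14%). At day 4, 9 of 31 were higher (Adam17, Hes1, Hey1, Heyl, Jag1, Ncstn, Notch3, Psen2, Rbpj; all genes 12.7%) and 2 were lower (Dtx4, Nrarp; all genes 5.89%). The share on the higher side was above that of all genes at each of the 6 stages, from 9.68% at day 0 to 29% at day 4. The share on the lower side, from 3.33% to 6.9%, lay around that of all genes. The median log2 ratio of the Notch genes was 0.04, 0.03, -0.02, 0.04, 0.11 and 0.17 from proliferating cells to day 4, beside medians of -0.02, -0.03, -0.05, -0.01, -0.00 and 0.05 over all genes, so the middle of the list moved little. Because the same genes recur from stage to stage, the 6 counts are not separate pieces of evidence. They include genes at shared loci, and with those removed the day 4 count on the higher side was 7 of 21, without Adam17 and Ncstn. The share of all genes at single-gene loci was not taken, so that count has no background.

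**Figure D2:**
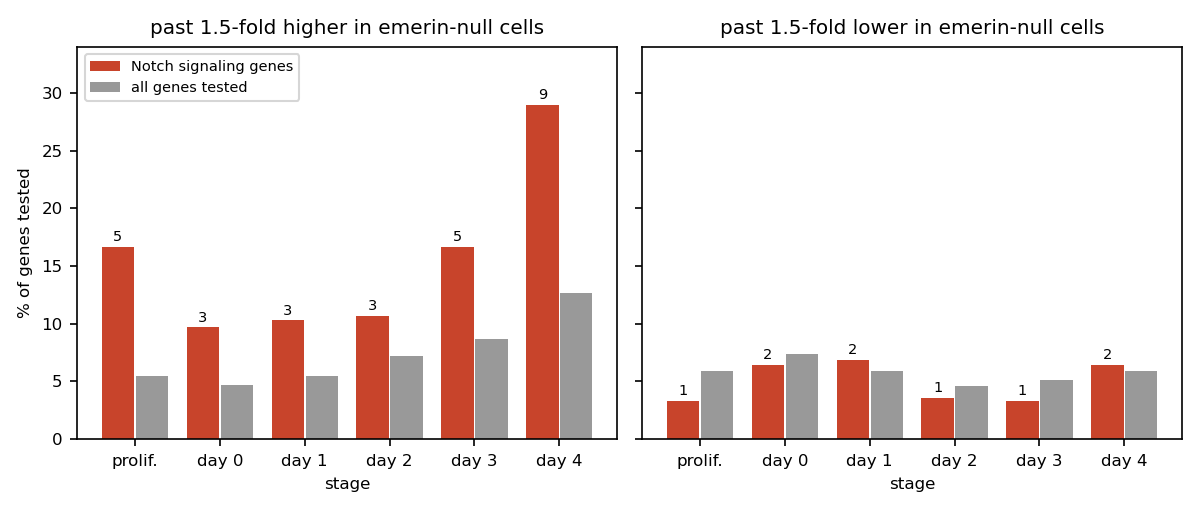
Percent of genes past 1.5-fold in emerin-null over wildtype cells at each stage, among the Notch signaling genes (left bars, with the number of genes above) and all genes tested (right bars). On the higher side the Notch signaling genes stand above all genes at each stage, and at day 4 they reach 29% beside 12.7%.

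Psen2 showed the widest gap of the 38 genes. It encodes a presenilin, a catalytic subunit of γ-secretase, the complex that releases the Notch intracellular part and also cuts many other membrane proteins. From proliferating cells to day 4 its FPKM was 4.60, 4.08, 8.79, 26.0, 31.6 and 35.1 in emerin-null cells, against 2.18, 2.48, 1.73, 3.18, 4.29 and 5.44 in wildtype cells. The emerin-null value exceeded the wildtype value at every stage, and at days 1 to 4 it exceeded the highest wildtype value of any stage. The log2 ratios were 1.04, 0.70, 2.28, 2.99, 2.85 and 2.67. Ranked from the highest ratio down, Psen2 stood at position 36 of 12329 genes at day 2 and at position 506 of 12623 at day 0.

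Psen2 had a single tested entry at every stage, and no other gene shares its locus. The gene lies on the reverse strand of chromosome 1 (chr1:180227004-180263438, GRCm38). At 5 stages the entry covered 96 to 97% of the annotated exon bases and ended within 32 bases of an annotated start site at position 180256300. At day 0 the entry was shorter, covering 89% of exon bases, and ended 78 bases inside a second start site at position 180245950, which lies 10350 bases further along the gene. The day 0 value thus counts a shorter transcript model than the other stages in both genotypes. The entries do not say which of these starts was in use.

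The promoter sequences of both starts are shown because the Psen2 ratio is the widest in the list and the assembled entries reached different starts. They run from 250 bases before to 50 bases after the start, 5′ to 3′ on the reverse strand, from RefSeq (GRCm38.p6). Capitals mark TTCCCA, the reverse complement of TGGGAA, which is the core of the sequence that Rbpj binds, and CACGTG, an E-box that Hes and Hey proteins can bind.
Psen2 outer start, chr1:180256251-180256550: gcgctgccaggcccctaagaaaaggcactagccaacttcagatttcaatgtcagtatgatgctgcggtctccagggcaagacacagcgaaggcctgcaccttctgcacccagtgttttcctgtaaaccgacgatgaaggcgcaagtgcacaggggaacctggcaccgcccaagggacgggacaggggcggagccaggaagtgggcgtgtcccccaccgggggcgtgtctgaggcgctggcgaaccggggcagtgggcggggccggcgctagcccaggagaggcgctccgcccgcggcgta
Psen2 inner start, chr1:180245901-180246200: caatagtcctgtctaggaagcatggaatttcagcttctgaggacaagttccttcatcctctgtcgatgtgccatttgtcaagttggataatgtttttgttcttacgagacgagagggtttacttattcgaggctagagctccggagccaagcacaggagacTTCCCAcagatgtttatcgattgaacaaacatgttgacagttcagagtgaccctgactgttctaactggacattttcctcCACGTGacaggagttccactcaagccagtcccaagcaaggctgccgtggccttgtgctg

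The inner promoter held TTCCCA 89 bases and CACGTG 9 bases before the start, and the outer promoter held neither, nor did either hold CAGCTG, an E-box bound by myogenic factors that was added to the search after the values had been seen. Searched on both strands, where CACGTG and CAGCTG read the same, TGGGAA occurred in 25.6%, CACGTG in 7.15% and CAGCTG in 16.3% of 32851 promoter windows of the same 300 bases, and the 3 words did not overlap in the windows shown. Of the target genes, 3 had a promoter in the table: Hes5 and Hey2 each held TGGGAA or its reverse complement at 2 places and no CACGTG, and Nrarp held CACGTG and CAGCTG once each. Hes1, Hey1 and Heyl were also looked up. These matches describe the letters alone.

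The targets are the usual readout of the pathway, and 2 of them differed most clearly. Hey1, a repressor switched on directly by Notch, was at 15.0, 14.7, 5.76, 3.13, 2.56 and 2.33 FPKM in emerin-null cells from proliferation to day 4, against 4.66, 5.49, 2.58, 1.27, 0.938 and 0.744 FPKM in wildtype cells. Its log2 ratio stayed between 1.13 and 1.66 while its level fell in both genotypes, so the plain ratio of FPKM was 2.24 at its smallest and 3.22 at its widest. Hey1 fell 6.12-fold between day 0 and day 4 in emerin-null cells and 6.62-fold in wildtype cells. The entry covered 97 to 100% of the exon bases of Hey1 (chr3:8663359-8667256, reverse strand) at every stage.

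Heyl, a relative of Hey1 also known in pericytes and smooth muscle, was at 10.2, 7.54, 15.3, 11.9, 12.6 and 16.3 FPKM in emerin-null cells, against 5.07, 5.58, 17.0, 9.07, 6.65 and 5.68 FPKM in wildtype cells. In wildtype cells it peaked at day 1 and then declined, whereas in emerin-null cells its highest value was at day 4. The log2 ratios were 1.00, 0.43, -0.15, 0.38, 0.91 and 1.502, so the genotypes were close at day 1 and furthest apart at day 4.

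Hes1, the repressor whose oscillations are known to keep progenitors undifferentiated, was at 17.1, 30.8, 14.6, 8.60, 13.6 and 13.0 FPKM in emerin-null cells, against 18.2, 19.1, 12.4, 7.78, 11.5 and 8.01 FPKM in wildtype cells. It was past 1.5-fold higher at day 0 and at day 4, with a log2 ratio of 0.69 at both, and between -0.09 and 0.24 at the other 4 stages. The Hes1 entry covered 56% of the exon bases at day 0 and 45% at day 3, against 85 to 100% at the other stages.

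The remaining targets were near the limit of detection. Nrarp, a feedback inhibitor of the Notch complex, was at 0.383, 0.502, 0.668, 0.654, 0.599 and 0.629 FPKM in emerin-null cells, against 0.351, 0.278, 0.503, 0.309, 0.615 and 1.52 FPKM in wildtype cells. Its single ratio past 1.5-fold, a log2 ratio of -1.15 at day 4, came from an entry of 268 bases at the start of the gene, and the entry over 90% of its exon bases was at 0.786 FPKM in emerin-null cells and 0.840 FPKM in wildtype cells. Hey2, a relative of Hey1 known in heart and vessels, was at 0.746 and 0.374 FPKM in emerin-null cells at days 1 and 2, against 0.294 and 0.150 FPKM in wildtype cells, with no tested entry at the other stages.

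**Figure D3:**
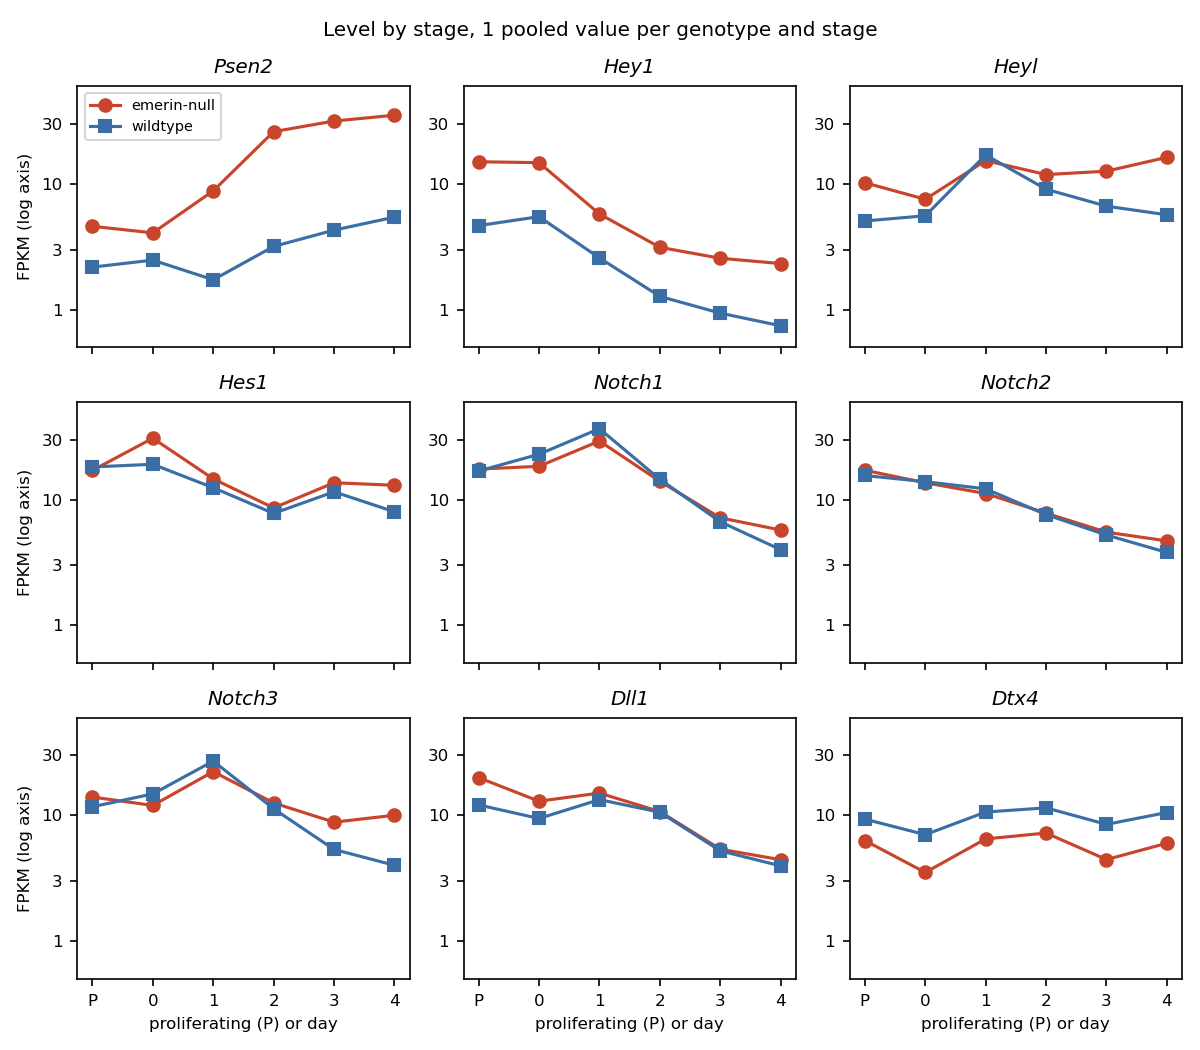
FPKM (log axis) of 9 Notch signaling genes in proliferating cells (P) and at days 0 to 4, for emerin-null (circles) and wildtype cells (squares), 1 pooled value per point and so no error bar. The Psen2 curves lie apart at every stage and part further after day 0, and the Hey1 curves run side by side. The Heyl curves lie apart in proliferating cells, are close at day 1 and part again later. The Notch3 curves part after day 1, and those of Notch1 and Notch2 nearly coincide.

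Of the 3 well-covered receptors, Notch3 alone differed by more than 1.5-fold between genotypes. Notch1 and Notch3 were highest at day 1 in both genotypes, and Notch2 was highest in proliferating cells. Notch1 was at 17.5, 18.4, 29.2, 14.0, 7.17 and 5.74 FPKM in emerin-null cells, against 16.9, 23.0, 36.7, 14.5, 6.67 and 4.00 FPKM in wildtype cells. Notch2, a receptor of muscle progenitors like Notch1, was at 17.1, 13.6, 11.2, 7.81, 5.51 and 4.70 FPKM in emerin-null cells, against 15.6, 13.9, 12.2, 7.61, 5.24 and 3.81 FPKM in wildtype cells. The log2 ratios of both stayed within -0.33 to 0.51, with the widest gap of each on the higher side at day 4.

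Notch3, the receptor best known from pericytes and smooth muscle but also present on muscle progenitors, was at 14.0, 12.01, 22.3, 12.6, 8.84 and 10.0 FPKM in emerin-null cells, against 11.7, 14.8, 27.1, 11.3, 5.36 and 4.02 FPKM in wildtype cells. Emerin-null cells were a little below wildtype cells at days 0 and 1 and above them at days 3 and 4, where the log2 ratios were 0.71 and 1.30. Like Heyl, Notch3 peaked at day 1 in wildtype cells, and its later decline was smaller in emerin-null cells. Its entry covered 96 to 100% of exon bases at every stage (chr17:32120820-32166852, reverse strand).

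The late ratios of Notch3 and Heyl stood beside ratios of other cell type markers. Of the 7 smooth muscle and pericyte markers (Acta2, Tagln, Myh11, Cnn1, Pdgfrb, Rgs5, Cspg4), 3 were past 1.5-fold higher in emerin-null cells at days 3 and 4, namely Tagln, Pdgfrb and Cspg4, among the 4 that had a tested entry at those days. Cspg4 was past 1.5-fold higher at all 6 stages, and Tagln was past 1.5-fold lower at days 0 and 1. Pdgfrb was at 5.61 and 4.71 FPKM in emerin-null cells at days 3 and 4, against 3.11 and 1.94 FPKM in wildtype cells. The summed level of that list, made up mainly of Acta2, which myoblasts also express, ran from 900 to 2132 FPKM in emerin-null cells and from 888 to 2610 FPKM in wildtype cells over the 6 stages, and Myh11 had no tested entry. The summed level of the 6 fibroblast markers (Pdgfra, Col1a1, Col3a1, Dcn, Lum, Thy1) was 159 and 162 FPKM in emerin-null cells at days 3 and 4, against 83.2 and 63.3 FPKM in wildtype cells, with Col1a1 past 1.5-fold higher and Dcn lower at both days and Col3a1 higher at day 4. The part of these genes, of Pax7 and of the cycling genes in the Notch ratios was not tested, and in bulk RNA more cells of a type and more RNA per cell cannot be told apart.

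Notch4, known mainly from endothelium, gave no usable comparison. Its entry in proliferating cells was at 12.05 FPKM in emerin-null and 12.9 FPKM in wildtype cells, and at day 0 at 7.12 FPKM in emerin-null and 16.3 FPKM in wildtype cells. That entry was 149 bases long and held no exon base of Notch4, so the log2 ratio of -1.18 at day 0 is not one of the receptor transcript. Entries that lay on Notch4 exons were at 0.298 and 0.253 FPKM in emerin-null cells at days 2 and 3, against 0.420 and 0.326 FPKM in wildtype cells.

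Among the ligands, Dll1 and Jag1 were higher in emerin-null cells at different ends of the course. Dll1, a Delta ligand made by differentiating myoblasts, was at 20.0, 13.0, 15.1, 10.7, 5.39 and 4.45 FPKM in emerin-null cells, against 12.1, 9.46, 13.4, 10.6, 5.23 and 3.97 FPKM in wildtype cells. Proliferating cells gave a log2 ratio of 0.72, day 0 cells 0.45 and cells of days 1 to 4 between 0.02 and 0.17, so the genotypes met from day 1 on.

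Jag1, a Jagged ligand, was low in both genotypes and had no entry in proliferating cells. From day 0 to day 4 it was at 2.01, 2.50, 1.83, 1.28 and 1.28 FPKM in emerin-null cells, against 1.80, 2.21, 1.11, 0.801 and 0.744 FPKM in wildtype cells. Its log2 ratios at days 2, 3 and 4 were 0.68, 0.62 and 0.71. The day 3 entry covered 53% of exon bases and the day 2 entry 87%.

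Jag2, the other Jagged ligand, was the steadiest of the ligands, at 16.8 to 20.8 FPKM in emerin-null cells and 16.4 to 23.8 FPKM in wildtype cells. Its widest log2 ratio was -0.50, in proliferating cells. The ubiquitin ligases Mib1 and Mib2, which make ligands competent by promoting their endocytosis, stayed within log2 ratios of -0.48 to 0.18. The Mib2 locus named Mmp23 at days 1 to 4. The Mib1 locus (chromosome 18) named the muscle microRNA genes Mir133a-1, Mir1a-2 and Mir1b at all 6 stages. Its day 1 value, 49.3 FPKM in emerin-null and 68.8 FPKM in wildtype cells, was the most abundant of 5 entries, and another entry over the same span was at 16.7 FPKM in emerin-null and 18.1 FPKM in wildtype cells.

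Of the glycosyltransferases that modify the receptors, Lfng, a Fringe enzyme that tunes which ligands a receptor answers, reached 1 FPKM at the first 2 stages only. It was at 7.29 and 15.3 FPKM in emerin-null proliferating and day 0 cells, against 4.29 and 10.9 FPKM in wildtype cells. From day 1 on it was at 0.292 to 0.999 FPKM in emerin-null cells and 0.117 to 0.911 FPKM in wildtype cells. Proliferating cells gave a log2 ratio of 0.75 and day 0 cells 0.48. The Lfng entry covered 82% of exon bases in proliferating cells and 57% at day 0. From day 1 to day 4 it covered 99.8%, 92%, 28% and 37%. The drop after day 0 thus sets different parts of the gene against each other. Pofut1, which adds the first fucose to Notch, and Rfng, another Fringe enzyme, stayed within -0.18 to 0.22 at all 6 stages. Rfng shared its locus with Dus1l and Gps1, and the Pofut1 locus named Plagl2 at days 0, 1 and 4. Mfng, the remaining Fringe enzyme, had a tested entry at day 2 alone, at 0.331 FPKM in emerin-null cells and 0.110 FPKM in wildtype cells.

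Apart from Psen2, the proteases gave no ratio past 1.5-fold at a locus of their own. Adam10, the main enzyme for the first cut of Notch, was at 9.44 to 29.9 FPKM in emerin-null cells and 10.4 to 27.8 FPKM in wildtype cells, with log2 ratios of -0.14 to 0.11. Adam17, a second sheddase, was at 15.0, 12.5, 13.1, 10.3, 7.45 and 10.3 FPKM in emerin-null cells, against 14.6, 11.8, 14.3, 11.8, 8.40 and 4.95 FPKM in wildtype cells. Its log2 ratio of 1.05 at day 4 does not hold for both entries of the locus, which it shares with Iah1. The other entry was at 4.88 FPKM in emerin-null and 6.32 FPKM in wildtype cells, and the sum of both gave a log2 ratio of 0.43. The table gives both gene names to both entries.

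Of the other γ-secretase subunits, none was past 1.5-fold at a locus of its own. Psenen, which activates presenilin, was within log2 ratios of -0.23 to -0.05 at all 6 stages, at 3.83 to 8.73 FPKM in emerin-null cells and 3.97 to 10.2 FPKM in wildtype cells, and its locus named Tmem149 and U2af1l4 at each of them. Aph1a, a scaffold subunit, had entries at days 2, 3 and 4 alone, with log2 ratios of -0.16, 0.32 and 0.17, and its locus named Car14 at day 2. Ncstn, the substrate receptor of the complex, shared its locus with the abundant coat protein gene Copa at each of its 5 stages. Its largest log2 ratio, 0.67 at day 4, rested on an entry at 68.7 FPKM in emerin-null and 43.1 FPKM in wildtype cells, and the second entry there was at 20.6 FPKM in emerin-null and 15.2 FPKM in wildtype cells.

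Of the nuclear complex, Rbpj and Maml2 were past 1.5-fold at 1 stage or more. Maml1 and Maml3, co-activators of the Mastermind family, and Spen, a corepressor that binds Rbpj, stayed within log2 ratios of -0.23 to 0.26 at all 6 stages. Maml1 shared its locus with Canx and Spen with Zbtb17. Maml2, the third Mastermind gene, was past 1.5-fold lower at day 1, at 2.84 FPKM in emerin-null and 4.41 FPKM in wildtype cells, with log2 ratios of -0.46 to 0.47 at the other stages.

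Rbpj, the DNA-binding protein of the pathway, was past 1.5-fold in both directions. Its FPKM was 4.12, 4.81, 3.78, 3.84, 5.01 and 3.28 in emerin-null cells, against 6.64, 3.72, 2.47, 2.86, 3.49 and 1.96 in wildtype cells. Proliferating cells gave a log2 ratio of -0.67, against 0.60 for day 1 and 0.71 for day 4. The proliferating entry covered 16% of exon bases and those of days 1 to 4 covered 34 to 37%, over different parts of the gene, while the day 0 entry covered 84%. A further proliferating entry over the same span was at 3.58 FPKM in emerin-null and 3.92 FPKM in wildtype cells.

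Among the regulators, Dtx4 was lower in emerin-null cells at every stage. Dtx4 encodes a ubiquitin ligase of the Deltex family, whose members bind the intracellular part of Notch. It was at 6.32, 3.52, 6.51, 7.25, 4.46 and 6.02 FPKM in emerin-null cells, against 9.35, 7.03, 10.6, 11.5, 8.49 and 10.6 FPKM in wildtype cells. The log2 ratios were -0.56, -0.98, -0.70, -0.66, -0.91 and -0.80, and the first was just short of 1.5-fold. The levels of the genotypes barely overlapped over the whole course: the highest emerin-null value, 7.25 FPKM at day 2, lay just above the lowest wildtype value, 7.03 FPKM at day 0. Dtx4 was alone at its locus (chr19:12466338-12501454, reverse strand), and its entries covered 99 to 100% of exon bases except at day 1, with 54%.

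None of the remaining regulators that reached 1 FPKM was past 1.5-fold. Numb, which sends Notch for degradation, was at 5.03 to 6.55 FPKM in emerin-null cells and 5.37 to 7.84 FPKM in wildtype cells. Its relative Numbl reached its widest log2 ratio, 0.51, at day 2. Itch, a ubiquitin ligase for Notch, and the Deltex genes Dtx2 and Dtx3 stayed within log2 ratios of -0.22 to 0.39. The Dtx3 locus named F420014N23Rik and Pip4k2c at all 6 stages. A smaller Dtx2 entry of 163 bases in proliferating cells was at 2.66 FPKM in emerin-null and 5.82 FPKM in wildtype cells. Dtx1, another Deltex gene, had a tested entry at day 1 alone, at 0.151 FPKM in emerin-null and 0.508 FPKM in wildtype cells.

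At day 4 more of the Notch genes were below than above their day 0 level in both genotypes. The counts against day 0 were read beside those of all genes, with a wider threshold of 2-fold because each stage was normalized on its own. At day 1, 3 of 30 genes were past 2-fold higher than at day 0 in emerin-null cells (Heyl, Mib1, Psen2; all genes 14.3%) and 4 were lower (Dtx3, Hes1, Hey1, Lfng; all genes 15.7%). In wildtype cells 2 of 30 were higher (Heyl, Mib1; all genes 12.8%) and 3 were lower (Dtx3, Hey1, Lfng; all genes 14.9%). At day 1 the shares thus lay below those of all genes. The 5 genes of the wildtype lists were all in the emerin-null lists, an overlap that was not taken over all genes. Mib1 and Dtx3 lay at loci that named other genes, and the Psen2 entry at day 0 was shorter than at day 1. Without such loci 2 of 20 genes were higher and 3 lower in emerin-null cells. In wildtype cells 1 of 20 was higher and 2 were lower. The matching shares of all genes at such single-gene loci were not taken. Another Mib1 entry at day 1 was at 16.7 FPKM in emerin-null and 18.1 FPKM in wildtype cells. The day 0 levels were 18.8 FPKM in emerin-null and 20.1 FPKM in wildtype cells.

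At day 4, 5 of 30 genes were past 2-fold higher than at day 0 in emerin-null cells (Dtx2, Heyl, Mib2, Psen2, Psenen; all genes 18.8%) and 10 were lower (all genes 27.3%). In wildtype cells 4 of 31 were higher (Dtx2, Nrarp, Psen2, Psenen; all genes 17.3%) and 13 were lower (all genes 31.2%). The Mib2 locus also named Mmp23 at day 4 but not at day 0, and the Psenen locus named other genes at both days. For Psen2 the day 0 entry was shorter than the day 4 entry. The Nrarp ratio set the day 4 entry of 268 bases against a day 0 entry over 87% of its exon bases, and it was lost with loci of at least 1000 bases. Both lower lists held Adam10, Dll1, Dtx3, Hes1, Hey1, Lfng, Maml2, Notch1 and Notch2, which is 90% of the emerin-null list and 69.2% of the wildtype list. The overlap between genotypes was not taken over all genes, so it is not read as a trait of the Notch genes. The emerin-null list also held Mib1, and the wildtype list also held Adam17, Jag1, Notch3 and Pofut1. In these lower lists Dtx3, Mib1, Adam17 and Pofut1 lay at loci that named other genes at both days. Without loci that named other genes, 3 of 20 genes were higher and 8 lower in emerin-null cells. In wildtype cells 3 of 21 were then higher and 10 lower. The matching shares of all genes at single-gene loci were not taken, so these counts have no background. The medians of the Notch genes were -0.53 in emerin-null and -0.80 in wildtype cells, beside -0.24 in emerin-null and -0.33 in wildtype cells over all genes. Because the median of all genes was itself shifted, the comparison was repeated after median-ratio scaling, which left 8 Notch genes lower and 5 higher in emerin-null cells and 7 lower and 5 higher in wildtype cells. Over all genes the same scaling left 2795 higher and 2643 lower in emerin-null cells, and 2656 higher and 2995 lower in wildtype cells. That scaling moved the share of higher among all genes past 2-fold to 51.4% in emerin-null and 47.0% in wildtype cells, against 40.8% in emerin-null and 35.7% in wildtype cells without it.

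Several genes changed by different amounts in the genotypes between days 0 and 4. Psen2 was 8.44-fold higher at day 4 in emerin-null cells and 2.15-fold higher in wildtype cells. Its day 0 entry ended near the inner start and its day 4 entry near the outer start. These folds, and the growth of its gap, thus set different transcript models against each other. Notch3 was 1.19-fold lower at day 4 in emerin-null cells and 3.63-fold lower in wildtype cells. Heyl, by contrast to the receptors, was 2.14-fold higher at day 4 in emerin-null cells and 1.02-fold higher in wildtype cells. The log2 gap between genotypes thus grew by 1.97 for Psen2, 1.60 for Notch3 and 1.07 for Heyl, beside a median growth of 0.14 over 29 Notch genes and 0.09 over 11319 genes. The Dtx2 value at day 4 came from an entry at 28.2 FPKM in emerin-null and 32.9 FPKM in wildtype cells, and another entry over the same span was at 7.41 FPKM in emerin-null and 8.12 FPKM in wildtype cells, close to the day 0 levels of 6.28 FPKM in emerin-null and 6.87 FPKM in wildtype cells.

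**Figure D4:**
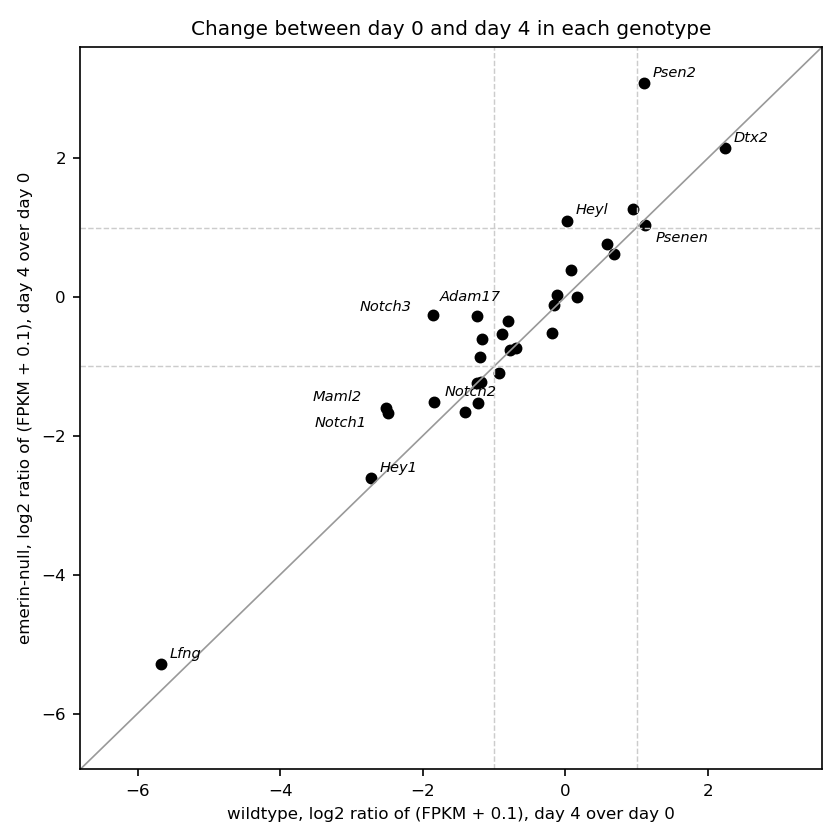
Log2 ratio of (FPKM + 0.1) at day 4 over day 0 in emerin-null cells (vertical axis) and wildtype cells (horizontal axis) for 30 Notch signaling genes, with the diagonal of equal change and dashed lines at 2-fold. Most points lie near the diagonal and below 0, and Psen2, Notch3 and Heyl lie furthest above it among genes with a locus of their own. The Psen2 entry was shorter at day 0 than at day 4.

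Of 26 genes that reached 1 FPKM at all 6 stages, 19 had their highest level at the same stage in both genotypes. The 7 that did not were Dll1, Jag2, Rbpj, Maml2, Hey1, Heyl and Dtx3. The matching share over all genes was not taken, so whether 7 of 26 is usual is unknown. The emerin-null level was highest in proliferating cells for 6, at day 0 for 4, at day 1 for 7, at day 2 for 2, at day 3 for 2 and at day 4 for 5. The wildtype level was highest in proliferating cells for 6, at day 0 for 5, at day 1 for 8, at day 2 for 2, at day 3 for 1 and at day 4 for 4. Notch1 and Notch3 shared the day 1 peak in both genotypes, and Psen2 peaked at day 4 in both.

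A further 35 genes of the pathway, which include other ligands, co-repressors, co-activators and receptor-modifying enzymes, were counted in the same way. Between 26 and 29 of them reached 1 FPKM at a stage. Past 1.5-fold higher in emerin-null cells were 3 in proliferating cells (Dlk1, Hes6, Tle4), 1 at day 0 (Dlk1), 3 at day 1 (Dlk1, Poglut1, Tle4), 2 at day 2 (Dlk1, Tle4), 2 at day 3 (Hes6, Tle4) and 3 at day 4 (Hdac1, Hes6, Tle3). The shares of all genes on that side were 5.44%, 4.72%, 5.46%, 7.23%, 8.7% and 12.7%, and the counts at days 0, 2, 3 and 4 lay below them. Past 1.5-fold lower were Kat2b at day 0 and Dner at day 4, and none at the other 4 stages. Their median log2 ratio lay between -0.05 and 0.11 at all 6 stages.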

How the data were processed

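RNA of 12 samples was read on an Illumina HiScan-SQ. According to the methods and the submitters' processing notes, the authors checked reads with FastQC, mapped them to mm10 with TopHat and compared the genotypes with Cuffdiff (releases not given in the sources used here). In the tables the authors deposited, 1 per stage, rows hold 2 FPKM values per entry, a status, and the authors' own fold, test statistic, p, q and call, which were not used. FPKM was read from the Cuffdiff layout, since no source names the unit. Counts and single plates were not at hand, so depth and replicate error are unknown, no model was fitted and no p is given.

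The 38 members and all lists were chosen with earlier results of these data known. Per gene and stage, the entry with status OK and the largest summed FPKM was kept, which gave 13802 to 14017 genes per stage. Entries whose names a spreadsheet had turned into dates (35 to 48 per table) were left out, and 1 line of the day 3 table was blanked for this work. The authors assembled transcripts stage by stage, and entries can cover different parts of a gene. Exon cover came from GENCODE M21 (GRCm38, the build of the files). A pseudocount of 0.1, an FPKM minimum of 1 and folds of 1.5 (genotypes) and 2 (stages) were used. A gene was given with all its values where it was past 1.5-fold in 1 direction at 3 or more stages, past 2-fold at any stage, or one of Notch1, Notch2, Notch3, Dll1, Jag1, Hes1, Hey1, Heyl and Nrarp. Alternatives were summed entries, entries of any status, a pseudocount of 1, no FPKM minimum or one of 5, loci of a single gene, 2 scalings and another fold. Loci of at least 1000 bases were added after seeing the data. The code (Python 3.11.15, pandas 2.3.3, numpy 2.4.6) was tested on simulated tables.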

Additional observations from a re-analysis of the deposited data

Results flagged for a closer look

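Rbpj was past 1.5-fold in opposite directions at different stages, with log2 ratios of emerin-null over wildtype FPKM of -0.67 (proliferating cells), 0.60 (day 1) and 0.71 (day 4). The difference between stages was not tested, since there was 1 value per genotype and stage. With all tested Rbpj entries of a stage summed, the log2 ratios were -0.39 (proliferating cells), 0.44 (day 1) and 0.71 (day 4), so that day 4 alone of these stages stayed past 1.5-fold.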

How the results depend on the processing

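The counts of Notch genes past a fold (10 counts, 100 alternative values) moved by over 1.5 times in 14. A fold of 2 in place of 1.5 between genotypes left 2 genes in proliferating cells and at days 0, 1, 2 and 3, and 6 at day 4, against 6, 5, 5, 4, 6 and 11. A pseudocount of 1 left 3 genes at day 1. An FPKM minimum of 5 left 3 at day 1, 2 at day 2 and 7 at day 4. Without a minimum 8 genes were past the fold at day 2. A fold of 1.5 in place of 2 between days 1 and 0 gave 13 genes in emerin-null and 10 in wildtype cells, against 7 and 5 at 2-fold. Keeping loci of a single gene left 3 of the 5 in wildtype cells. For the genes given in full, 596 of 598 alternative log2 ratios moved by less than 1.5-fold and none that was past 1.5-fold changed sign, the exceptions in size being Hey1 at day 4 with a pseudocount of 1 (0.93) and Adam17 at day 4 with entries summed (0.43). Entries on loci of at least 1000 bases, chosen after seeing the data, left Notch4 at day 0 and Nrarp at day 4 without a ratio past the fold. Neither scaling moved a total of both directions by over 1.5 times, but median-ratio scaling gave 7 genes lower at day 4 than at day 0 in wildtype cells, against 13, and 1 gene lower in emerin-null than in wildtype cells at day 1, against 2. No paired analysis was possible because there was 1 value per genotype and stage. FPKM without counts gives no depth, so how firmly low genes such as Jag1, Nrarp and Hey2 are measured is unknown, and ratios near 1.5-fold may lie within the spread between plates, which could not be seen.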
